A study of Mus musculus with 18 samples.

Results

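The genes described are 32 enzymes that make serine, one-carbon units and nucleotides, out of 50600 genes in the count table. They were chosen by name for their place in these pathways, and all 32 were found in the table and tested in every comparison. RNA-seq was performed on Foxp3+ Tregs that were FACS-purified by their fluorescent reporter from 18 C57BL/6 mice. Thymic CD25 KO Tregs came from 5 “cured” CD25flox/Foxp3-YFP/Cre mice, in which Cre is driven by the Foxp3 locus and which had received WT splenocytes as neonates, and thymic WT Tregs came from 5 Foxp3/RFP reporter mice of the same age (3 to 4 weeks). Splenic CD25 KO Tregs came from 4 CD25flox/Foxp3eGFP-Cre-ERT2/R26Y mice and splenic WT Tregs from 4 reporter controls with intact CD25. Both splenic groups received tamoxifen at 7 to 10 weeks of age and were taken 10 to 14 days later. Cre removes exon 4 of Il2ra, the gene of CD25, so KO transcripts may still be counted. Cre acts only in cells that express Foxp3, and in the splenic model only after tamoxifen. Tissue, mouse model, age and sequencing run changed together and cannot be told apart. Within the thymus, KO and WT mice differed in the Foxp3 reporter allele and Cre, and the neonatal cell transfer is described for KO mice only. These differences cannot be told apart from the loss of CD25 in thymic comparisons.

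Dividing lymphocytes need building blocks for RNA and DNA. Serine is made from a glycolytic intermediate by Phgdh, Psat1 and Psph, and serine hydroxymethyltransferases pass a carbon from it to folate. Folate enzymes carry that carbon between mitochondria and cytosol and hand it to purine synthesis, to thymidylate and to methionine. Purines are assembled on phosphoribosyl pyrophosphate (PRPP) up to inosine monophosphate (IMP), which is then turned into AMP or GMP, or bases are salvaged onto PRPP directly. Pyrimidines are built by Cad, Dhodh and Umps, and ribonucleotide reductase and thymidylate synthase supply the nucleotides of DNA. In activated T cells these pathways are known to be switched on with growth and proliferation, and IL-2 is a growth factor of T cells.

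Promoter sequences are shown for 4 members to which the results return: Shmt2 and Impdh2, which were lower in CD25 KO Tregs of both tissues, Atic, which had the largest fold change of the members DE in the thymus, and Rrm2, which had the largest in the spleen. Each runs 5′ to 3′ on the gene's own strand from 250 bases before to 50 bases after the start site in RefSeq, build GRCm38.p6. Capitals mark matches to the motifs searched.
Shmt2, chr10:127522395-127522694, minus strand: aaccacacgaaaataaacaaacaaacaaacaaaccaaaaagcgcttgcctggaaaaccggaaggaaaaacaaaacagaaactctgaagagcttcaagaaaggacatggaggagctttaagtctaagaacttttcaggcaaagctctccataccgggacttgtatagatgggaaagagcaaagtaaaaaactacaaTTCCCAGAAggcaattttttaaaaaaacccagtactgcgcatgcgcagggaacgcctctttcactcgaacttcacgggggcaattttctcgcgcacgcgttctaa
Impdh2, chr9:108560186-108560485, plus strand: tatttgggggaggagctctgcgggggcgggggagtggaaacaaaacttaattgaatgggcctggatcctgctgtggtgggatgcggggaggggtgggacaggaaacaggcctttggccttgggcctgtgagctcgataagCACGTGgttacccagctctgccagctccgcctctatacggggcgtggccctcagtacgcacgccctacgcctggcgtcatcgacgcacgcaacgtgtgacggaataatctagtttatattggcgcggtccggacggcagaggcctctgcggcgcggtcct
Atic, chr1:71556906-71557205, plus strand: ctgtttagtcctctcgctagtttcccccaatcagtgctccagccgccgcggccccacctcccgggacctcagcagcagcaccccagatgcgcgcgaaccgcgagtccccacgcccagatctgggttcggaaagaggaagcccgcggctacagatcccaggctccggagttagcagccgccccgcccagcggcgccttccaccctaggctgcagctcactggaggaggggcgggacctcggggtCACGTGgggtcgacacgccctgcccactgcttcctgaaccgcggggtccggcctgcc
Rrm2, chr12:24708004-24708303, plus strand: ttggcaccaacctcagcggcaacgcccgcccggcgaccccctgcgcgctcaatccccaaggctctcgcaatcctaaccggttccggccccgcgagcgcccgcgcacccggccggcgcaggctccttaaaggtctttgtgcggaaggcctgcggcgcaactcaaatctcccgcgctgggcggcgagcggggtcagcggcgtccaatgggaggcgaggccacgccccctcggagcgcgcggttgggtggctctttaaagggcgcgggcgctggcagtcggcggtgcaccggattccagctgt
The motifs were the E-box CACGTG that MYC can bind, the ATF4 core TGATGNAA, the E2F forms TTTCCCGC and TTTGGCGC, and the STAT5 form TTCNNNGAA, each searched on both strands. In the windows shown, CACGTG starts 110 bases before the start site of Impdh2 and 7 bases before that of Atic. TTCCCAGAA, a match to the STAT5 form, starts 55 bases before the start site of Shmt2, and the Rrm2 window holds no match. Windows were given for 30 of the 32 members. CACGTG was present for 4 of these 30 (Atic, Impdh2, Paics and Tyms), and in 8.09% of all genes with a window. The STAT5 form was present for 3 (Adsl, Paics and Shmt2) against 9.55% of all genes. The ATF4 core was present for 1 member (Prps1) against 4.51%, and either E2F form for 2 (Ppat and Prps2) against 1.8%. These counts are small, the letters alone do not show binding, and the windows cover only the start site region.

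Total counts were 17239774 to 23993674 per thymic sample and 25258341 to 32639570 per splenic sample. Levels are given as CPM, counts scaled to the size of the library with TMM factors for its composition. Il2ra was at 524 to 682 CPM in thymic WT and 488 to 538 CPM in splenic WT Tregs, and at 168 to 208 CPM in splenic KO Tregs. The 5 thymic KO mice, numbered 1 to 5, gave 105, 279.7, 96.1, 234 and 95.8 CPM. Thymic KO mice 2 and 4 thus stood apart from the other 3 by Il2ra, and they also did by cell cycle genes. The summed level of 25 S phase and mitosis genes was 1978 and 1711 CPM in mice 2 and 4 against 615 to 743 CPM in mice 1, 3 and 5, with 1286 to 2255 CPM in thymic WT. In the spleen this sum was 729 to 791 CPM in WT and 945 to 1086 CPM in KO. Thymic log2 fold changes of most members are therefore also given without KO mice 2 and 4. The mice were set aside for levels with which many members moved, so values and counts of calls without them are a description. No p is given for single members without them. All 9 Treg and T cell markers were detected in every group, with Foxp3 at group means of 503 and 297 CPM in thymic WT and KO and 330 and 226 CPM in splenic WT and KO Tregs. The 7 B cell markers summed to 132 to 171 CPM in thymic WT and 78.6 to 111 CPM in thymic KO, and to 490 to 589 CPM in splenic WT and 654 to 777 CPM in splenic KO, most of it Ighm. The 6 CD8 and NK cell markers summed to 34.2 to 75.0 CPM in the thymus, and to 21.3 to 28.1 CPM in splenic WT and 46.4 to 63.0 CPM in splenic KO, with Ncr1 at 0 in every group except thymic WT. Splenic group means in WT and KO were 11.2 and 34.6 CPM for Nkg7 and 7.48 and 7.81 CPM for Cd8b1. Cd8a and Eomes also had higher means in splenic KO, and Klrd1 had a lower one. Myeloid, immature thymocyte and erythroid marker sums of WT and KO overlapped in the thymus, as did the erythroid sums in the spleen. In splenic WT and KO Tregs 7 myeloid markers summed to 36.8 to 40.9 and 47.2 to 49.9 CPM, and 8 immature thymocyte markers to 36.5 to 42.5 and 43.5 to 47.6 CPM. Single markers of these lists did not all move alike. Lyz2, Cst3 and Itgam had higher means in splenic KO, and Csf1r, Cd14, Fcgr3 and Adgre1 lower ones. Cd1d1 made most of the thymocyte sum, at means of 29.3 and 34.7 CPM. Cd8a, Cd8b1 and Ptcra were also higher, Rag2, Dntt and Arpp21 lower, and Rag1 was at 0. Xist, a transcript of female mice, had at least 1000 counts in 2 of 5 thymic WT, 1 of 5 thymic KO and all splenic samples. Whether other cells or sex had a part in the results was not tested beyond a fit with Xist as a term.

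Among the 32 members, 4 were differentially expressed (DE, FDR < 0.01) in thymic CD25 KO Tregs and all 4 were lower: Shmt2, Aprt, Atic and Impdh2. Of all genes tested in the thymus, 6.16% were DE, 2.99% lower and 3.17% higher. The fitted fold change was below 0 for 30 of the 32, with a median log2 fold change of -0.32 against 0.00 for all genes. KO values lay wholly below WT values for 13 members, against 9.17% of all genes, and wholly above for none, against 7.2%. At FDR < 0.05, which 23.3% of all genes passed, 14 members were lower and none higher. Without KO mice 2 and 4, 19 members were lower and none higher at FDR < 0.01, and the 4 named above were among them. In that fit 11.5% of all genes passed, 7.07% lower and 4.45% higher. Mice 2 and 4 were the 2 highest KO mice for 21 of the 32 members, so leaving them out largely fixes such a rise. The count of 19 is thus a description and not a test. Without WT mouse 5 none passed, and without WT mouse 2 or KO mouse 1 Aprt alone passed. Of the 10 ways to leave out 1 thymic mouse, Aprt was kept in 9, Atic in 7 and Shmt2 and Impdh2 in 2 each. In bulk samples, fewer cells of a type and less RNA per cell cannot be told apart.

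In splenic CD25 KO Tregs 12 members were DE, with 9 lower (Phgdh, Shmt2, Mthfd1, Fpgs, Gart, Pfas, Impdh1, Impdh2 and Cad) and 3 higher (Psat1, Rrm1 and Rrm2). Of all genes tested in the spleen 9.45% were DE, 3.55% lower and 5.9% higher. The median log2 fold change of the members was -0.10 against -0.01 for all genes. KO values lay wholly below WT for 14 members, against 9.19% of all genes, and wholly above for 4, against 11.2%. Leaving out any 1 splenic mouse left 9 to 11 members DE, whereas a fit over all 18 samples, which shares the thymic spread, left 3 (Fpgs, Impdh1 and Impdh2). In those 8 settings 9 of the 12 were always kept. Phgdh was kept in 1, Fpgs was lost without WT mouse 1, 2 or 4 or KO mouse 4, and Pfas without WT mouse 2 or 4 or KO mouse 2 or 4.

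**Figure D1:**
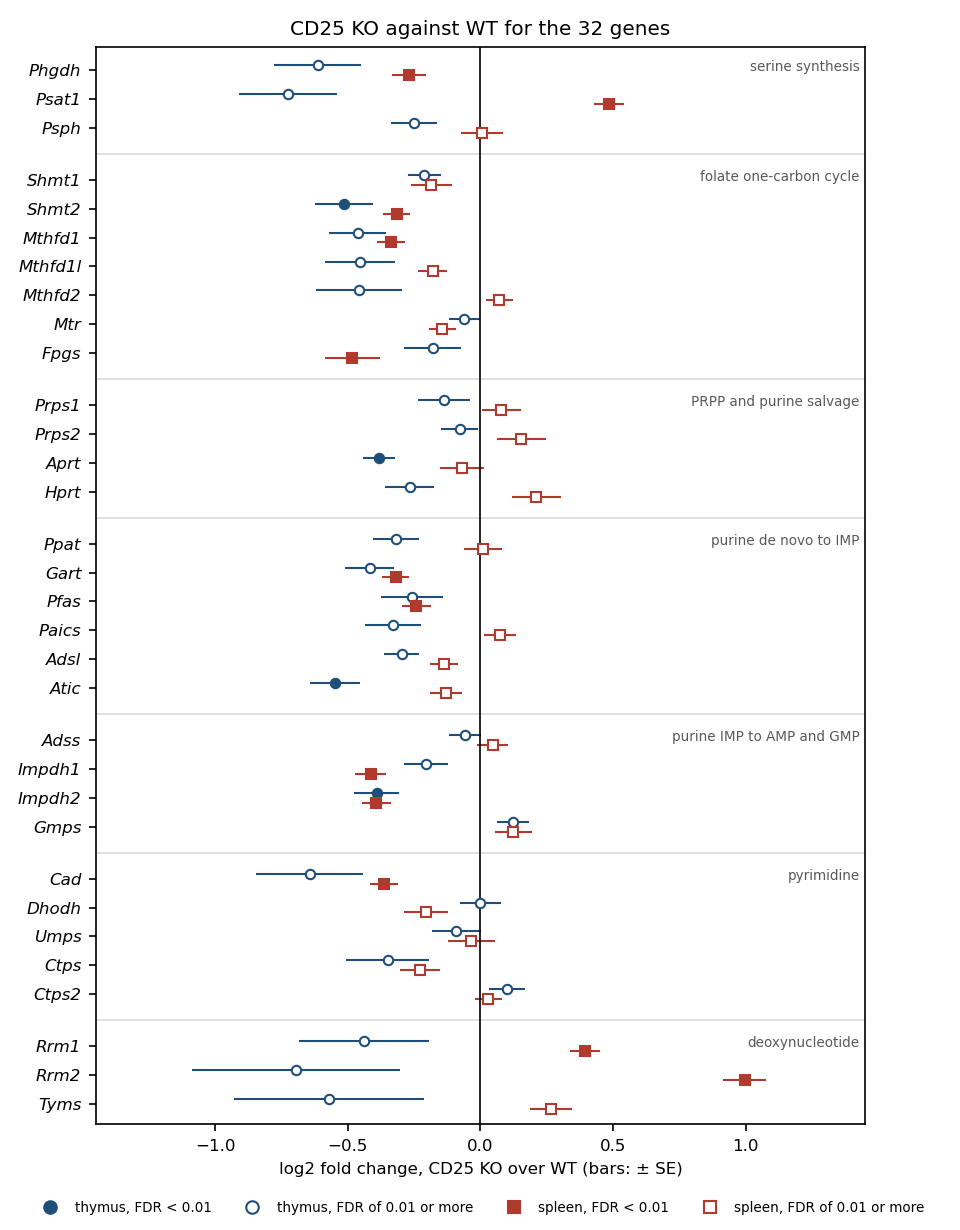
Log2 fold change of CD25 KO over WT, with its standard error, for the 32 genes in thymus (circles) and spleen (squares), ordered by pathway step; filled symbols mark FDR < 0.01. Thymic values are below 0 for 30 of 32 genes, while splenic values run from -0.48 for Fpgs to 1.00 for Rrm2.

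Shmt2 and Impdh2 were the 2 members lower in both tissues. Of the 16214 genes tested in both, 0.506% were lower in both. A further 7 members were DE and lower in the spleen without reaching the threshold in the thymus, 2 were lower in the thymus without reaching it in the spleen, and 18 were DE in neither. Such a pattern of calls does not show that effects differ, so the splenic minus the thymic log2 fold change was tested on its own. It passed FDR < 0.01 for 1 member, Psat1, and was above 0 there. Of all genes 6.98% passed, 4.5% above 0 and 2.49% below. At FDR < 0.05, which 16.9% of all genes passed, it was above 0 for 8 members (Psat1, Mthfd2, Aprt, Hprt, Paics, Atic, Rrm1 and Rrm2) and below 0 for none.

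**Figure D2:**
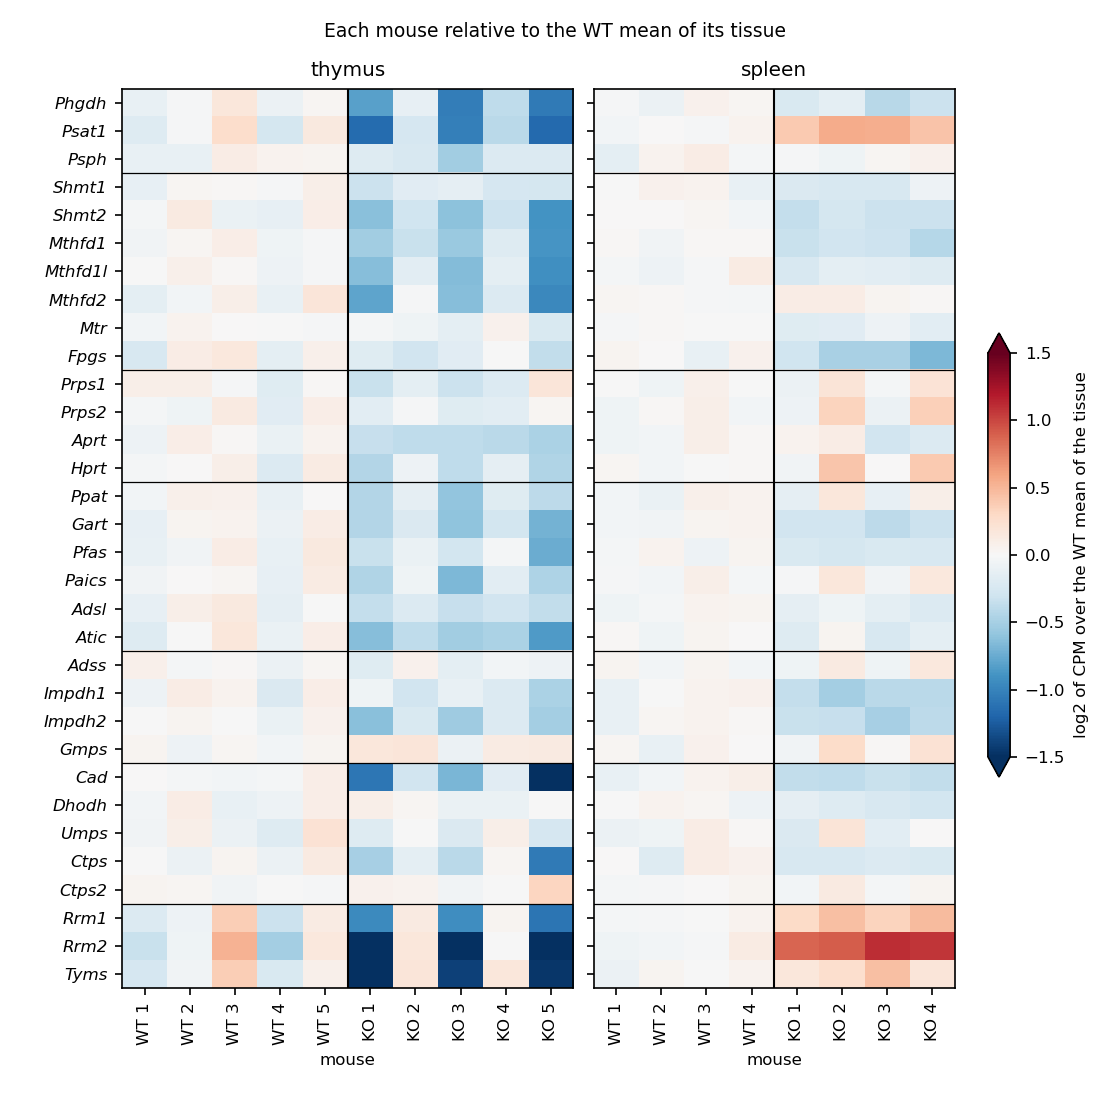
Level of each gene in each mouse as the log2 ratio to the WT mean of the same tissue, with 1 column per mouse and genes grouped by pathway step; ratios beyond 1.5 in either direction are drawn in the end colours. In the thymus KO mice 1, 3 and 5 differ from WT for most genes while KO mice 2 and 4 lie nearer to WT, and in the spleen the 4 KO mice are alike for Psat1, Shmt2, Cad and Rrm2.

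Serine synthesis has 3 members, of which Phgdh was lower and Psat1 higher in splenic CD25 KO Tregs. Phgdh, the first and committed enzyme (chromosome 3, 98313170 to 98339990, minus strand, in build GRCm38 as for all genes), was at 46.5, 44.4, 49.3 and 48.0 CPM in splenic WT and 40.2, 42.6, 35.4 and 37.8 CPM in splenic KO Tregs. All 4 KO values were below all WT values, with a log2 fold change of -0.27 ± 0.06 (SE, adjusted p = 0.00863). This call was lost with a correction for GC content, and when any mouse other than KO mouse 2 was left out. Psat1, the transaminase of the next step (chromosome 19, 15904678 to 15947337, minus strand), was higher in the same mice. It was at 33.7, 34.7, 34.2 and 35.8 CPM in splenic WT and 45.6, 50.8, 50.6 and 46.5 CPM in splenic KO Tregs, with every KO mouse above every WT mouse (log2 fold change 0.48 ± 0.06, adjusted p = 3.04e-05). Psph, the phosphatase that releases serine, had overlapping splenic groups, at 14.1 to 16.7 CPM in WT and 14.9 to 16.2 CPM in KO Tregs.

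In the thymus Phgdh was at 42.5, 45.2, 51.7, 43.1 and 46.8 CPM in WT and 26.1, 42.2, 22.4, 35.1 and 21.9 CPM in KO Tregs. The groups did not overlap, but KO mouse 2 was just below the lowest WT mouse, and the log2 fold change of -0.61 ± 0.16 did not pass the threshold (adjusted p = 0.0209). Without KO mice 2 and 4 it was -0.96. Psat1 was at 39.3, 44.4, 54.1, 37.6 and 50.1 CPM in thymic WT and 20.3, 37.8, 22.2, 34.1 and 20.1 CPM in thymic KO Tregs. KO mice 1, 3 and 5 were far below every WT mouse and KO mouse 2 was just inside the WT range, and the log2 fold change of -0.73 ± 0.19 had an adjusted p of 0.0177. Without KO mice 2 and 4 it was -1.11. The CD25 KO effect on Psat1 differed between tissues by 1.23 ± 0.22 (SE, adjusted p = 0.000842), and it passed the threshold in each of the 27 alternatives run. Its level relative to Phgdh, each per kilobase of exon, was read within samples. Psat1 gave 30.1% ± 1.1 (SD, n = 4) of the sum of both in splenic WT and 42.1% ± 2.4 (n = 4) in splenic KO Tregs. In the thymus the share was 36.4% ± 1.9 (n = 5) in WT and 34.6% ± 2.1 (n = 5) in KO, with overlapping ranges. The Psat1 and Phgdh pair was set side by side after its values were seen. Psph was at 15.8 to 18.5 CPM in thymic WT and 11.9 to 14.9 CPM in thymic KO, without overlap, at a log2 fold change of -0.25 ± 0.09 (adjusted p = 0.0557).

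The folate cycle has 7 members, of which 1 was DE in the thymus and 3 in the spleen, all lower. Shmt2, the mitochondrial serine hydroxymethyltransferase that starts one-carbon supply from serine (chromosome 10, 127517123 to 127522444, minus strand), was at 50.2, 56.5, 48.0, 47.1 and 55.0 CPM in thymic WT and 33.2, 41.7, 33.4, 41.5 and 27.5 CPM in thymic KO Tregs. In the spleen it was at 49.0, 49.0, 49.7 and 47.4 CPM in WT and 38.1, 40.7, 38.9 and 38.9 CPM in KO Tregs. No KO mouse reached the lowest WT mouse in either tissue. The thymic log2 fold change was -0.52 ± 0.11 (adjusted p = 0.00839) and the splenic one -0.32 ± 0.05 (adjusted p = 0.00053), and their difference of 0.22 ± 0.13 did not pass (adjusted p = 0.267). The thymic call was lost when any 1 of 8 thymic mice was left out and with Xist as a term. It was kept without KO mouse 2 or KO mouse 4, and the log2 fold change without both was -0.70.

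Shmt1, the cytosolic isozyme (chromosome 11, 60788104 to 60811718, minus strand), was at 30.1, 33.4, 33.2, 32.3 and 34.8 CPM in thymic WT and 26.2, 29.1, 29.8, 27.5 and 27.3 CPM in thymic KO Tregs. All KO values were below all WT values, and the log2 fold change of -0.21 ± 0.06 had an adjusted p of 0.0282. In the spleen it was at 19.2, 20.2, 20.1 and 17.8 CPM in WT and 16.7, 16.4, 16.4 and 18.4 CPM in KO Tregs, with overlap at KO mouse 4 (log2 fold change -0.18 ± 0.08, adjusted p = 0.111). Per kilobase of exon, Shmt2 gave 66.1% ± 1.6 (SD, n = 5) of both isozymes in thymic WT and 61.0% ± 4.0 (n = 5) in thymic KO Tregs, and 75.9% ± 0.7 (n = 4) and 74.2% ± 1.3 (n = 4) in splenic WT and KO Tregs. These shares overlapped between WT and KO in both tissues.

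Mthfd1, the cytosolic trifunctional folate enzyme (chromosome 12, 76255298 to 76319803, plus strand), was at 52.2, 49.9, 52.3 and 52.1 CPM in splenic WT and 41.1, 42.2, 41.6 and 38.5 CPM in splenic KO Tregs. The gap between the groups was wider than the range of either (log2 fold change -0.34 ± 0.05, adjusted p = 0.000392). In the thymus it was at 48.0, 50.7, 53.4, 47.8 and 49.2 CPM in WT and 34.6, 39.4, 34.0, 43.6 and 26.9 CPM in KO Tregs, again without overlap, at -0.46 ± 0.11 and an adjusted p of 0.0115, or -0.64 without KO mice 2 and 4. Fpgs, which adds glutamates that keep folates inside the cell (chromosome 2, 32682609 to 32704145, minus strand), was at 10.9, 10.7, 9.76 and 11.03 CPM in splenic WT and 8.59, 7.53, 7.58 and 6.61 CPM in splenic KO Tregs. Its splenic log2 fold change of -0.48 ± 0.10 was the lowest of all members (adjusted p = 0.0042), whereas in the thymus WT values of 9.15, 11.7, 12.0, 9.73 and 11.4 CPM overlapped KO values of 9.55, 8.85, 9.58, 10.8 and 8.35 CPM (-0.18 ± 0.11, adjusted p = 0.234).

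The mitochondrial enzymes Mthfd1l and Mthfd2 and the methionine synthase Mtr were DE in neither tissue over all mice, while without KO mice 2 and 4 the thymic log2 fold changes of Mthfd1l and Mthfd2 were -0.73 and -0.78. Mthfd1l, which makes formate, ranged from 64.1 to 70.9 CPM in thymic WT and from 35.6 to 61.0 CPM in thymic KO Tregs, and the splenic groups were at 62.4 to 71.8 CPM and 55.9 to 59.4 CPM, with no overlap in either tissue (adjusted p = 0.0289 and 0.0348). Mthfd2, the mitochondrial dehydrogenase known for its rise in dividing cells, had a thymic log2 fold change of -0.46 ± 0.16 and a splenic one of 0.07 ± 0.05, and the difference had an adjusted p of 0.0486. Mtr ranged from 55.8 to 68.1 CPM over all thymic mice and was at 57.8 to 59.0 CPM in splenic WT and 51.5 to 55.4 CPM in splenic KO Tregs (adjusted p = 0.06).

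**Figure D3:**
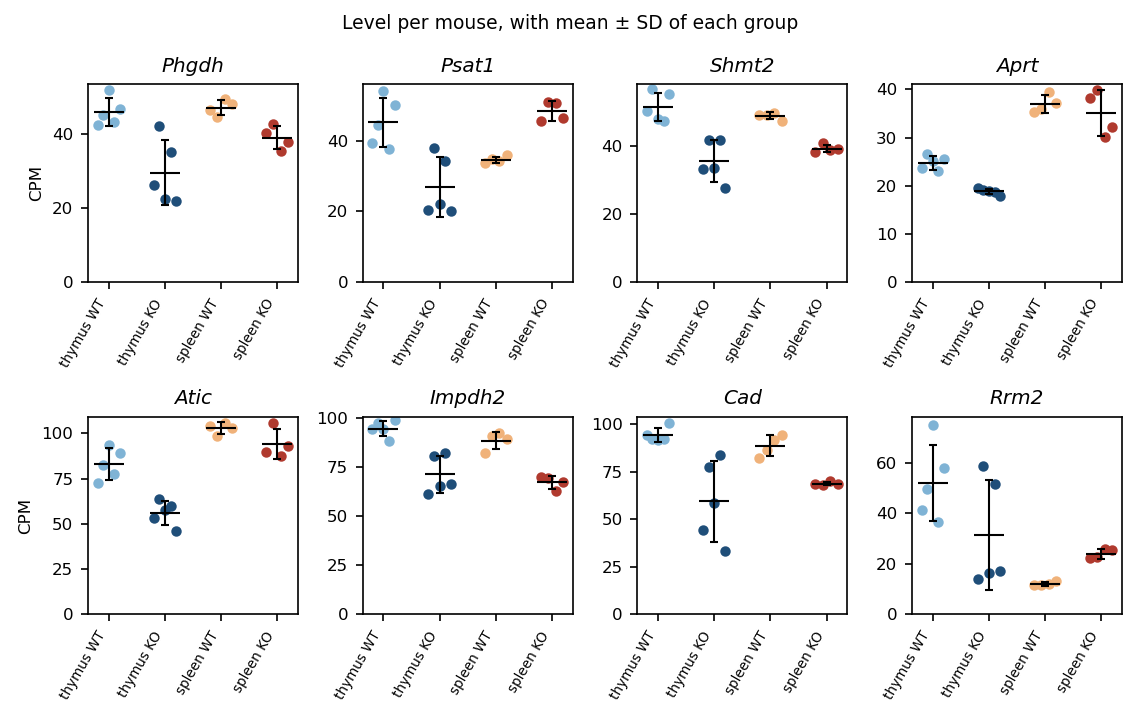
Level in CPM of 8 members in each mouse of the 4 groups, with the mean and SD of each group in black; axes start at 0. Shmt2 and Impdh2 are lower in KO than WT in both tissues, Psat1 is higher in splenic KO and Rrm2 is split between high and low thymic KO mice.

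PRPP supply and purine salvage have 4 members. Aprt, which salvages adenine (chromosome 8, 122574635 to 122576909, minus strand), was at 23.6, 26.5, 25.1, 23.1 and 25.6 CPM in thymic WT and 19.5, 19.03, 18.99, 18.7 and 17.9 CPM in thymic KO Tregs. The 5 KO mice lay close together, mice 2 and 4 included, and all were below every WT mouse (log2 fold change -0.38 ± 0.06, adjusted p = 0.00245, or -0.39 without KO mice 2 and 4). In the spleen WT values of 35.2, 35.9, 39.4 and 37.3 CPM overlapped KO values of 38.2, 39.9, 30.1 and 32.1 CPM (-0.07 ± 0.08, adjusted p = 0.617). Hprt, which salvages hypoxanthine and guanine, had a thymic log2 fold change of -0.27 ± 0.09 (adjusted p = 0.0538) and a splenic one of 0.21 ± 0.09 (adjusted p = 0.139). The thymic value was -0.56 and DE with the GC correction, and -0.41 without KO mice 2 and 4. Its splenic KO mice were split, with mice 2 and 4 at 66.0 and 65.2 CPM and mice 1 and 3 at 47.7 and 49.6 CPM.

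The PRPP synthetases Prps1 and Prps2 were DE in neither tissue. Prps1 (chromosome X, 140456613 to 140476140, plus strand) was at 43.9, 43.8, 40.7, 36.3 and 41.7 CPM in thymic WT and 32.8, 37.4, 32.9, 35.7 and 46.7 CPM in thymic KO Tregs, and at 31.8, 30.5, 33.8 and 31.8 CPM and 30.1, 36.5, 31.3 and 36.9 CPM in splenic WT and KO Tregs. Prps2 (chromosome X, 167346322 to 167382749, minus strand) was at 80.9, 78.9, 90.2, 72.9 and 88.3 CPM in thymic WT and 73.8, 81.2, 72.4, 73.9 and 83.9 CPM in thymic KO Tregs, and at 78.8, 83.0, 87.3 and 79.7 CPM and 78.1, 104, 77.2 and 105 CPM in splenic WT and KO Tregs. WT and KO overlapped for both genes in both tissues, and splenic KO mice 2 and 4 were the high ones again. With the GC correction the thymic log2 fold changes were -0.24 for Prps1 and -0.30 for Prps2, against -0.14 ± 0.10 and -0.08 ± 0.07 without it, and neither was DE. Prps2 gave 50.6% to 58.0% of the sum of both isozymes per kilobase in the 4 group means. Among the members, 12 were highest in splenic KO mice 2 and 4, an order that 25% of all tested genes had. Another 4 (Fpgs, Pfas, Impdh1 and Cad) were lowest in them, as were 24.2% of all tested genes. The median GC content was 43.9% for the 12 and 57.8% for the 4, beside 45.4% and 51.4% for all tested genes with the same orders. GC content thus moved with the split of the splenic KO mice, and its part in these values was not tested. Over all tested genes, log2 fold change and GC content were correlated more closely for thymic Tregs (Spearman -0.40) than for splenic Tregs (-0.17). The GC correction made the fold changes of the thymic DE members smaller. Aprt went from -0.38 to -0.27, Shmt2 from -0.52 to -0.42, Impdh2 from -0.39 to -0.33 and Atic from -0.55 to -0.52. Only Impdh2 lost its call. Beyond this correction, the part of GC content in the thymic values was not tested.

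De novo purine synthesis up to IMP has 6 members, and all 6 had a thymic fold change below 0. Atic, the last enzyme of the route (chromosome 1, 71557150 to 71579631, plus strand), was at 72.4, 82.6, 93.5, 77.3 and 89.1 CPM in thymic WT and 53.2, 63.6, 57.7, 59.7 and 46.2 CPM in thymic KO Tregs. The highest KO mouse was below the lowest WT mouse, at a log2 fold change of -0.55 ± 0.09 (adjusted p = 0.00336), or -0.66 without KO mice 2 and 4. In splenic Tregs WT values of 104, 98.2, 106 and 103 CPM overlapped KO values of 89.8, 106, 87.2 and 92.7 CPM (-0.13 ± 0.06, adjusted p = 0.167), and the difference between tissues of 0.43 ± 0.12 had an adjusted p of 0.0177.

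Gart, which catalyses several steps of the route (chromosome 16, 91621186 to 91646952, minus strand), was at 63.8, 62.8, 67.0 and 68.0 CPM in splenic WT and 53.5, 53.5, 49.9 and 52.3 CPM in splenic KO Tregs. All KO mice were below all WT mice (log2 fold change -0.32 ± 0.05, adjusted p = 0.00051). The thymic values were 57.1, 64.0, 64.8, 58.4 and 67.2 CPM in WT and 46.0, 53.6, 41.0, 51.5 and 38.2 CPM in KO Tregs, also without overlap, at -0.42 ± 0.09 and an adjusted p of 0.0104, or -0.57 without KO mice 2 and 4. An antisense gene covers 19.7% of the exonic bases of Gart, the most of any member, and reads of the pair cannot be told apart unless strand was used in counting.

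Pfas, a glutamine-dependent enzyme of the same route (chromosome 11, 68985697 to 69008460, minus strand), was at 50.1, 53.0, 48.5 and 52.8 CPM in splenic WT and 43.6, 42.4, 43.7 and 43.1 CPM in splenic KO Tregs. The 4 KO values lay close together and below every WT value (log2 fold change -0.24 ± 0.05, adjusted p = 0.00485). In the thymus 71.7, 74.8, 83.4, 71.4 and 85.6 CPM in WT overlapped 61.2, 72.1, 64.0, 76.0 and 46.3 CPM in KO Tregs (-0.26 ± 0.12, adjusted p = 0.122, or -0.43 without KO mice 2 and 4). Ppat, the amidotransferase that commits PRPP to the route, and Paics, which acts later in the route than Pfas, are neighbours whose first exons overlap by 272 bases on opposite strands of chromosome 5. The thymic log2 fold change of Ppat was -0.32 ± 0.09 (adjusted p = 0.0217) and its splenic one 0.01 ± 0.07 (adjusted p = 0.947). Those of Paics were -0.33 ± 0.11 (adjusted p = 0.0413) and 0.07 ± 0.06 (adjusted p = 0.461). Neither was DE, although both passed FDR < 0.05 in the thymus. Without KO mice 2 and 4 the thymic values were -0.46 for Ppat and -0.52 for Paics, and with the GC correction that of Ppat was -0.45 and DE. Adsl, which acts both before and after IMP, was at 50.8 to 61.6 CPM in thymic WT and 42.9 to 48.3 CPM in thymic KO Tregs, without overlap (-0.30 ± 0.07, adjusted p = 0.0105, or -0.35 without KO mice 2 and 4), and at -0.14 ± 0.05 on the log2 scale in the spleen (adjusted p = 0.0971).

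The step from IMP to AMP and GMP has 4 members, and both IMP dehydrogenases were lower in the spleen. Impdh2, the inducible IMP dehydrogenase that commits IMP to GMP (chromosome 9, 108560286 to 108565584, plus strand), was at 94.2, 97.3, 94.2, 88.4 and 98.7 CPM in thymic WT and 61.4, 80.8, 65.5, 82.0 and 66.3 CPM in thymic KO Tregs. In the spleen it was at 81.9, 90.5, 92.0 and 89.2 CPM in WT and 70.0, 69.4, 62.6 and 67.1 CPM in KO Tregs. KO and WT did not overlap in either tissue, although KO mice 2 and 4 were the highest thymic KO mice. The thymic log2 fold change was -0.39 ± 0.08 (adjusted p = 0.00929) and the splenic one -0.39 ± 0.06 (adjusted p = 0.000153), and the difference between tissues was 0.01 ± 0.11 (adjusted p = 0.948). The thymic call was close to the threshold and was lost with RLE scaling, with a GC correction, with Xist as a term and when any 1 of 8 thymic mice was left out. Without both KO mice 2 and 4 the value was -0.54.

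Impdh1, the other IMP dehydrogenase (chromosome 6, 29200434 to 29216364, minus strand), was at 58.7, 63.0, 66.0 and 66.2 CPM in splenic WT and 49.5, 44.7, 48.1 and 48.0 CPM in splenic KO Tregs. No KO mouse reached a WT mouse (log2 fold change -0.41 ± 0.06, adjusted p = 0.000113). In the thymus 73.1, 83.2, 80.1, 66.6 and 83.0 CPM in WT overlapped 73.6, 63.2, 71.5, 67.1 and 55.5 CPM in KO Tregs (-0.21 ± 0.08, adjusted p = 0.0859). Per kilobase, Impdh2 gave 59.9% ± 0.6 (SD, n = 4) of both in splenic WT and 60.2% ± 1.7 (n = 4) in splenic KO Tregs, with overlapping ranges, and 56.8% ± 1.4 (n = 5) and 53.5% ± 4.8 (n = 5) in thymic WT and KO Tregs, which overlapped as well. Gmps, which makes GMP from the product of IMP dehydrogenase, was DE in neither tissue. Its thymic log2 fold change was 0.12 ± 0.06 (adjusted p = 0.154), or -0.22 with the GC correction, and its splenic one 0.12 ± 0.07 (adjusted p = 0.253). Adss, the first enzyme towards AMP, was not DE either, at -0.06 ± 0.06 for the thymic log2 fold change (adjusted p = 0.506, or -0.26 with the GC correction) and 0.05 ± 0.06 for the splenic one (adjusted p = 0.665).

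Pyrimidine synthesis has 5 members, of which 1 was DE. Cad, which catalyses the first steps of the route in a single protein (chromosome 5, 31054780 to 31078479, plus strand), was at 82.1, 86.5, 91.8 and 94.1 CPM in splenic WT and 68.6, 67.8, 70.1 and 68.5 CPM in splenic KO Tregs. The KO mice lay close together and below every WT mouse (log2 fold change -0.36 ± 0.05, adjusted p = 0.000186). In the thymus Cad was at 94.4, 92.3, 91.5, 92.1 and 101 CPM in WT and 44.5, 77.3, 58.5, 83.8 and 33.3 CPM in KO Tregs. All KO mice were below WT, but they ranged widely, and the log2 fold change of -0.64 ± 0.20 had an adjusted p of 0.0378. Without KO mice 2 and 4 it was -1.04.

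Dhodh, the mitochondrial step, and Umps, which completes UMP, were DE in neither tissue. Dhodh was at 12.8 to 15.0 CPM in thymic WT and 12.95 to 14.7 CPM in thymic KO Tregs, and at 12.8 to 14.0 and 11.1 to 12.3 CPM in splenic WT and KO Tregs, where the groups did not overlap (adjusted p = 0.101). Umps ranged from 35.6 to 49.3 CPM over the thymic mice, and over the splenic mice from 19.9 to 26.4 CPM, with overlap of WT and KO in both. Ctps, a CTP synthase needed by proliferating lymphocytes (chromosome 4, 120539868 to 120570276, minus strand), was at 29.1, 27.6, 30.2, 27.7 and 32.2 CPM in thymic WT and 20.8, 26.5, 22.2, 30.0 and 14.1 CPM in thymic KO Tregs (-0.35 ± 0.16, adjusted p = 0.123, or -0.61 without KO mice 2 and 4). In the spleen it was at 21.7, 18.9, 23.3 and 22.5 CPM in WT and 18.3, 18.3, 18.7 and 18.5 CPM in KO Tregs, just without overlap (log2 fold change -0.23 ± 0.08, adjusted p = 0.0518). Ctps2, the other CTP synthase (chromosome X, 162901238 to 163032508, plus strand), was at 125.7, 125.1, 118, 122 and 121 CPM and 128.2, 126.6, 118, 122 and 153 CPM in thymic WT and KO Tregs, and at 98.2, 99.2, 100.3 and 103 CPM and 97.4, 109.9, 98.6 and 103 CPM in splenic WT and KO Tregs, with overlap in both tissues. It gave most of the CTP synthase transcripts per kilobase, 74.5% ± 1.6 (SD, n = 5) in thymic WT, 79.9% ± 5.4 (n = 5) in thymic KO, 76.6% ± 1.5 (n = 4) in splenic WT and 79.6% ± 0.9 (n = 4) in splenic KO Tregs, and the splenic ranges did not overlap.

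Of the 3 members of deoxynucleotide synthesis, 2 were higher in splenic CD25 KO Tregs and none was lower. Rrm2, the cell cycle regulated subunit of ribonucleotide reductase (chromosome 12, 24708241 to 24714146, plus strand), was at 11.5, 11.7, 11.9 and 13.2 CPM in splenic WT and 22.2, 22.6, 26.0 and 25.4 CPM in splenic KO Tregs. Every KO mouse was well above every WT mouse, at a log2 fold change of 1.00 ± 0.08 (adjusted p = 9.17e-07). Rrm1, the large subunit (chromosome 7, 102441695 to 102469771, plus strand), was at 46.7, 47.1, 47.7 and 49.5 CPM in splenic WT and 58.4, 65.3, 60.4 and 66.4 CPM in splenic KO Tregs, again without overlap (log2 fold change 0.39 ± 0.06, adjusted p = 0.000169). Tyms, thymidylate synthase, was at 16.8 to 18.6 CPM in splenic WT and 20.2 to 24.5 CPM in splenic KO Tregs, without overlap (log2 fold change 0.27 ± 0.08, adjusted p = 0.0281, not DE). The S phase and mitosis list moved in the same direction in these libraries, with 13 of 25 genes DE and higher, none lower and a median log2 fold change of 0.50. The part that the share of cycling cells had in the 3 genes was not tested.

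In the thymus Rrm2 was at 41.2, 49.6, 75.0, 36.6 and 57.9 CPM in WT and 13.8, 58.8, 16.4, 51.7 and 17.1 CPM in KO Tregs. Mice 2 and 4 were inside the WT range and mice 1, 3 and 5 below it, and the log2 fold change was -0.70 ± 0.39 (adjusted p = 0.214). Rrm1 was at 83.1, 90.7, 123, 76.1 and 104 CPM in thymic WT and 49.1, 104, 49.9, 98.5 and 44.8 CPM in thymic KO Tregs, split in the same way (-0.44 ± 0.24, adjusted p = 0.207). Tyms ranged from 23.6 to 36.1 CPM in thymic WT, was at 31.9 and 31.6 CPM in KO mice 2 and 4, and was at 8.15 to 10.7 CPM in the other KO mice. None of these 3 was DE over all 10 thymic mice. Without KO mice 2 and 4, the ones with high values, the log2 fold changes were -0.98 for Rrm1, -1.72 for Rrm2 and -1.53 for Tyms, as leaving out those mice fixes. The thymic S phase and mitosis list was split alike, with 0 of 25 genes DE by edgeR over all mice, 6 at an unadjusted p under 0.05, a fold change below 0 for 24 and a median of -0.63 on the log2 scale. Of all thymic genes, 23.3% passed the stricter FDR < 0.05, so the 6 are not read as a change of the list. The splenic minus the thymic effect was 1.71 ± 0.48 for Rrm2 (adjusted p = 0.0183).

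The split of thymic KO mice ran through most of the pathway. Mice 2 and 4 were the 2 highest KO mice for 21 of the 32 members, against 15.4% of all tested genes, and the 2 lowest for none, against 16.3%. Each of them had 17 members below the WT range, whereas mice 1, 3 and 5 had 25, 29 and 26 below it. Aprt, Shmt1, Mtr, Impdh1 and Dhodh were among the members without this order. Il2ra and the cell cycle genes moved with this split, and their parts in it cannot be told apart in 5 mice.

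**Figure D4:**
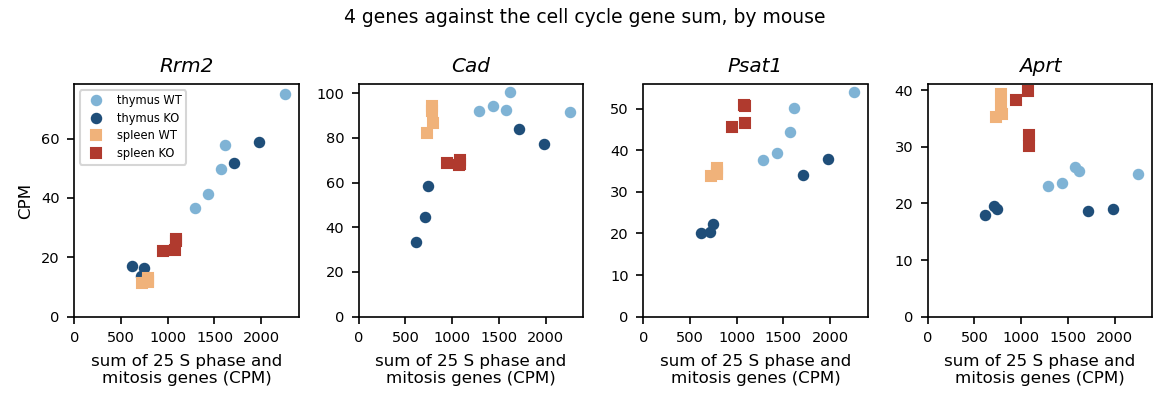
Level in CPM of Rrm2, Cad, Psat1 and Aprt in each mouse against the summed level in CPM of 25 S phase and mitosis genes; circles are thymic and squares splenic mice. In the thymus the KO mice with a low sum are also the ones with low Rrm2. In the spleen Cad is lower and the sum higher in KO. Thymic Aprt is lower in all KO mice than in any WT mouse, and no thymic WT mouse has a sum below 1286 CPM. The part of cycling cells in these levels was not tested.

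Genes of the same pathways that are not members were read from the same fits. Of 72 in the table, 65 were tested in the thymus, where 3 were lower and 1 higher, and 61 in the spleen, where 5 were lower and 5 higher. The share DE was 6.15% in the thymus, near the 6.16% of all genes, and 16.4% in the spleen, against 9.45%. Their median log2 fold changes were -0.13 and -0.01. Slc19a1, the reduced folate carrier, and Uck2, which salvages uridine and cytidine, were lower in both tissues. Slc19a1 was at 19.4, 21.7, 20.1, 21.1 and 22.6 CPM in thymic WT and 16.1, 16.2, 15.0, 16.6 and 11.2 CPM in thymic KO Tregs (-0.47 ± 0.10, adjusted p = 0.00999), just past the threshold, and at -0.36 ± 0.07 in the spleen (adjusted p = 0.0034). Uck2 was at 127.5, 148, 135, 136 and 140.1 CPM in thymic WT and 110.1, 103, 95.5, 106 and 75.8 CPM in thymic KO Tregs (-0.47 ± 0.09, adjusted p = 0.00466), and at -0.28 ± 0.06 in the spleen (adjusted p = 0.00599). KO values of both were below all WT values in both tissues. In the thymus Mat2a, which makes the methyl donor S-adenosylmethionine, was also lower (-0.43 ± 0.09, adjusted p = 0.00688), and Mtfmt, which formylates the mitochondrial initiator tRNA, was higher (0.50 ± 0.06, adjusted p = 0.000813).

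In the spleen the deaminases Dctd and Ada were lower and the kinases Dck and Adk and the oxidase Xdh higher. Dctd, which turns dCMP into dUMP for Tyms, was at 6.55, 7.69, 7.49 and 5.91 CPM in WT and 4.87, 4.25, 4.51 and 3.26 CPM in KO Tregs (-0.71 ± 0.14, adjusted p = 0.00268). Ada, adenosine deaminase, was at -0.57 ± 0.14 (adjusted p = 0.00823) and Adk, adenosine kinase, at 0.39 ± 0.07 (adjusted p = 0.00136). Dck, which salvages deoxycytidine, was at 49.5, 46.1, 51.7 and 50.8 CPM in WT and 61.6, 78.3, 69.7 and 76.9 CPM in KO Tregs (0.53 ± 0.07, adjusted p = 9.53e-05). For Xdh, which oxidises purines to urate, the log2 fold change was 0.47 ± 0.09 (adjusted p = 0.00136).

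By RPKM (CPM divided by kilobases of exon), which allows genes to be compared within a tissue, Hprt was the highest member in all 4 groups at group means of 31.6 to 44.3. The group means were 21.9 to 30.7 for Impdh2 and 22.6 to 28.7 for Paics. Dhodh and Fpgs had the lowest group means, 1.85 to 2.19 and 1.99 to 2.84. Levels were not compared between tissues by a test, because counting may not have been alike in both. There were 41 genes, none of them a member, that averaged at least 10 CPM in the thymus and under 0.1 CPM in the spleen. Among them were Mat2a and the immature thymocyte marker Rag1, and 3 genes did the reverse. Whether counting or expression made these differences was not tested.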

How the data were processed

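Per the labels and the methods of the study, reads were aligned with STAR 2.5.0b to the mouse genome GRCm38 and counted per gene of GENCODE M13 with featureCounts 1.5.0. The authors deposited raw counts per gene, without normalization. The strand setting is not given in the sources used here. Symbols, positions, exonic length and GC content were taken from GENCODE M21 by Ensembl identifier, and 50376 of 50600 identifiers matched.

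CD25 KO and WT samples of a tissue were compared in edgeR 4.0.16 (R 4.3.3), after filterByExpr and TMM scaling, with the quasi-likelihood F test, and p-values were adjusted over all genes after Benjamini and Hochberg. DE means FDR < 0.01. The difference between tissues was an interaction contrast over all 18 samples. Errors are SE of log2 fold changes. CPM used TMM factors over all samples. Alternatives, DESeq2 1.42.0 included, are listed in the closing section, and the fits were tested on simulated data. No columns were identical. Mice, not pooled samples, are replicates as far as the labels say. Splenic mice were numbered in listing order.

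Values per mouse were given for DE members (up to 3 per step and tissue, by fold change) and the isozyme pairs of Shmt, Impdh, Prps and Ctps, and other pathway genes were named if DE in both tissues or among the 5 with the largest fold change in a tissue at a mean of at least 1 CPM. Members, pathway lists and marker lists were chosen with earlier results of these data known. GENCODE lists processed copies (Phgdh-ps1, Aprt-ps, Impdh2-ps and Tyms-ps) that could share reads with 4 members. Some items are not reported here.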

Additional observations from a re-analysis of the deposited data

Results flagged for a closer look

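For 4 of the sets of values compared (32 genes in each of 4 groups), a single mouse lay far from the others of its group by Dixon's test at the 95% level, which flags about 1 set in 20 by chance. Thymic KO mouse 3 had 11.9 CPM of Psph where the other thymic KO mice had 14.5 to 14.9 CPM. The same mouse had 68.4 CPM of Gmps where the others had 79.0 to 82.6 CPM. Splenic KO mouse 4 had 18.4 CPM of Shmt1, above the 16.4 to 16.7 CPM of the other splenic KO mice. Splenic WT mouse 2 had 49.9 CPM of Mthfd1, below the 52.1 to 52.3 CPM of the other splenic WT mice.

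The effect of CD25 KO on Psat1 differed between tissues, by 1.23 on the log2 scale (spleen minus thymus, edgeR interaction test, adjusted p = 0.000842). It was higher in 4 of 4 splenic KO mice than in any splenic WT mouse and lower in 4 of 5 thymic KO mice than in any thymic WT mouse.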

How the results depend on the processing

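No DE member changed direction under any alternative. In the thymus, 4 members were DE in the reported fit, against 12 with DESeq2, 7 with no filter on low counts, 15 with all 18 samples in 1 fit, 14 at FDR < 0.05, 2 with Xist as a term and 19 without KO mice 2 and 4, the last 2 chosen after seeing the data. Leaving out 1 mouse gave 0 (without WT mouse 5) to 7 (without KO mouse 2). With thymic samples of the same replicate number as a block, 0 members were DE, and 0 with the block and a GC correction. The numbers were not taken as pairs, since same-numbered WT and KO mice deviated together with correlations of only -0.31 to 0.15, and splenic numbers mark listing order alone. Other normalizations, filters and a GC correction gave 3 to 5. In the spleen, 12 members were DE and 3 with all 18 samples in 1 fit, while the other settings gave 11 to 14 and leaving out 1 mouse 9 to 11. For the difference between tissues, 1 member was DE, against 3 with DESeq2, 2 with no filter, 2 with a GC correction, 8 at FDR < 0.05, and 1 to 6 with 1 mouse left out. Of the other pathway genes, 4 were DE in the thymus, against 16 with DESeq2, 7 with no filter, 20 at FDR < 0.05, 2 with Xist as a term, 13 without KO mice 2 and 4 and 1 to 7 with 1 mouse left out, and 10 in the spleen (5 to 9 with 1 mouse left out). Of all genes, 6.16% were DE in the reported thymic fit and 23.3% passed FDR < 0.05, against 6.98% and 16.9% for the difference between tissues. For the other settings the share of all genes is not given here. A rise in the counts is therefore not a result about these genes, and the cause of the changes was not tested. The thymic median of the members was -0.45 without KO mice 2 and 4.

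Every member had at least 159 counts in every sample. Sets of 4 and 5 mice, 1 CD25 KO model per tissue, thymic WT mice of another reporter strain and bulk RNA limit what the comparisons show. No protein or metabolite was measured.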

Other observations

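Outside the 32 members, 66 other genes of these pathways were tested for a CD25 KO effect that differed between tissues. By edgeR at FDR < 0.01 the difference was above 0 for 6 and below 0 for 1. That is 10.6% of them, against 6.98% of all genes, so it is not read as a result about the pathways. Some of these genes are named here after their values were seen. The difference (spleen minus thymus, log2) was 0.71 ± 0.16 (SE) for Ahcy, which clears S-adenosylhomocysteine, 0.57 ± 0.13 for the mitochondrial serine carrier Sfxn1, 0.96 ± 0.15 for Xdh and -0.57 ± 0.09 for Mtfmt. Genes that were too low to be tested in a tissue are left out.

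Rrm2, the cell cycle regulated small subunit, was also set against Rrm2b, the form used outside S phase, after the values were seen. Per kilobase of exon, Rrm2 gave 51.3% ± 2.1 (SD, n = 4) of both in splenic WT and 66.1% ± 2.7 (n = 4) in splenic KO Tregs, without overlap, and 91.8% ± 2.9 (n = 5) and 80.1% ± 10.4 (n = 5) in thymic WT and KO Tregs. Mthfd2 gave 89.5% ± 2.0 (n = 5) of the sum with its paralogue Mthfd2l in thymic WT and 79.9% ± 6.7 (n = 5) in thymic KO Tregs, without overlap, and 92.7% ± 0.3 (n = 4) and 93.8% ± 0.6 (n = 4) in splenic WT and KO Tregs.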
